A study of Mus musculus with 12 samples.

Results

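Irs4 and the genes of insulin-like growth factor signalling were followed across 12 whole mouse embryos at E10.5, measured on 1 array each. The members are Irs4, Irs1, Irs2, Igf1, Igf2, Igf1r, Igf2r, Insr, H19 and Grb10, listed for their place in the fetal growth pathway, while Irs4 was chosen by its low log2 values in the double mutant arrays of these same data. Each gene was read by the probe set with the highest mean among those that carry its symbol alone, which gave values for 9 of the 10 members out of 18193 genes with such a probe set. H19 shares its probe set with another gene symbol and is not analysed here. The embryos fall into 4 genotypes of 3. The wt embryos are wild type, the acd embryos are homozygous for the acd allele (Acdacd/acd), the p53 embryos lack p53 (p53-/-), and the double embryos carry Acdacd/acd together with p53-/-. Acd encodes TPP1, a shelterin protein that protects telomeres. The labels give no strain or litter and do not describe the alleles. They call the replicates biological without saying whether the embryos shared a litter. Each sample is RNA of a whole embryo, so fewer cells of a type and less RNA per cell cannot be told apart.

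Insulin-like growth factors act through receptor tyrosine kinases. Igf1 and Igf2 bind the receptor encoded by Igf1r, and Igf2 can also signal through the insulin receptor encoded by Insr. The activated receptors phosphorylate docking proteins of the insulin receptor substrate family, Irs1, Irs2 and Irs4, which recruit phosphatidylinositol 3-kinase and so drive Akt and mTOR signalling. Igf2r binds Igf2 and carries it to lysosomes, and the adaptor Grb10 dampens receptor signalling. Igf2, Igf2r and Grb10 are imprinted, and the pathway sets much of the growth of the mouse embryo and placenta.

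The members of the Irs family are shown here with the sequence before their gene starts, since Irs4 was low in every double mutant array while Irs1 and Irs2 were not. The sequences come from RefSeq (assembly GRCm38.p6), which held promoters for 8 of the 10 listed genes, and all 3 lie on the minus strand. They are printed 5′ to 3′ in the direction of transcription, for Irs4 the 250 bases before the start (chrX:141725218-141725467) and for Irs1 (chr1:82291509-82291594) and Irs2 (chr8:11008930-11009013) up to 40 bases on each side of the motif. Capitals mark the hexamer CACGTG, an E-box.
Irs4: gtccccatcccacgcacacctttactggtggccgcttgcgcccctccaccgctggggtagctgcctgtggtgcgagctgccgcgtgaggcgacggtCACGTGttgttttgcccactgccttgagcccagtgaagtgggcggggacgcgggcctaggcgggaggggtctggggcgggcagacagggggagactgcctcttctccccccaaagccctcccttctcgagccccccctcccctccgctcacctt
Irs2: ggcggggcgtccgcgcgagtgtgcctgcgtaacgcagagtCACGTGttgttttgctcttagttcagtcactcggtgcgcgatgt
Irs1: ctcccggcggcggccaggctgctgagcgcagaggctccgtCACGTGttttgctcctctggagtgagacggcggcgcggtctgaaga

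Each of the 3 genes had 1 CACGTG in the 250 bases before its start. Igf2r had it too, which makes 4 of the 8 members with a promoter entry, while Igf1, Igf2, Igf1r and Grb10 did not. On either strand this hexamer was found in 6.02% of 32851 promoter windows of that length. The longest run shared by Irs4 and Irs2 was GTCACGTGTTGTTTTGC, 17 bases that contain the hexamer, and on either strand it was found in 2 of the 32851 windows, those of Irs4 and Irs2. Irs1 shared with each of them the 10 bases GTCACGTGTT, found in 23 windows (0.07%). These letters were chosen for the search after the sequences had been read. A match describes the sequence and is not evidence of a bound factor. The array data do not measure promoter activity.

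Irs4, the docking protein encoded on the X chromosome (chrX:141710998-141725217), measured 7.68, 7.87 and 7.68 in wt replicates 1 to 3. It measured 7.67, 7.86 and 8.16 in acd, and 7.60, 7.68 and 7.85 in p53. The double mutants measured 6.46, 7.05 and 6.90. Values are RMA log2 values, a robust multi-array average on which 1 unit is a doubling. The wt, acd and p53 arrays overlapped with each other, and every double mutant array lay below all of them. The genotype means were 7.90 ± 0.25 in acd, 7.75 ± 0.11 in wt, 7.71 ± 0.13 in p53 and 6.80 ± 0.31 in double mutants (SD, n = 3 each). Neighbours in this order differed by less than their spread except p53 and double. The double mutant mean was 0.469 of the acd mean, 0.533 of the p53 mean and 0.520 of the wt mean, differences of -1.09, -0.91 and -0.94 on the log2 scale. Irs4 was chosen for these values, so they are a description and carry no test. Of 13500 genes tested, 195 (1.44%) lay below all 9 other arrays in every double mutant array. Among those 195 genes Irs4 had the largest gap to the other arrays, 0.55 on the log2 scale, and the largest difference of means, -0.98. Among all 13500 genes, overlapping or not, it ranked 9 from the lowest by that difference.

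**Figure D1:**
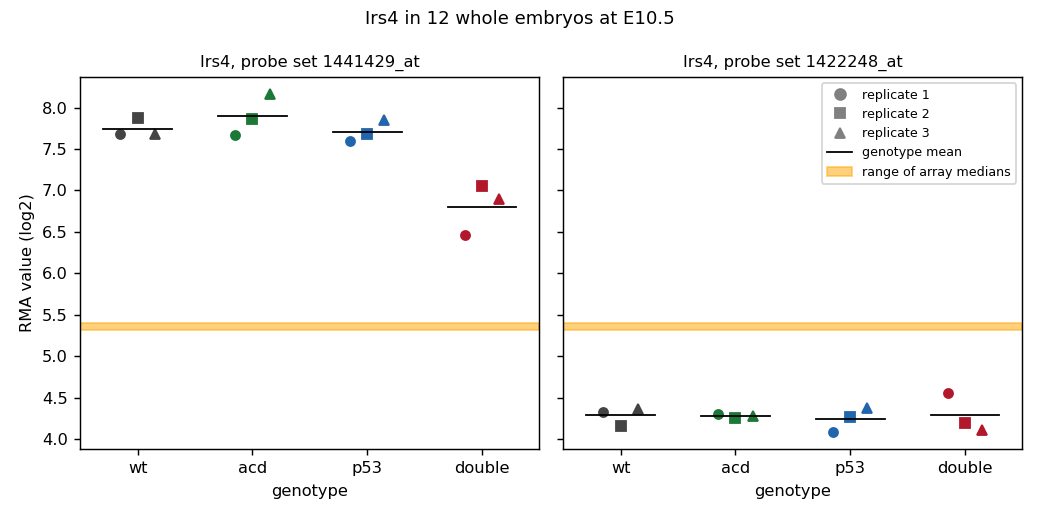
RMA log2 values of Irs4 in each of the 12 arrays by genotype (wt, acd, p53, double), for the probe set used (left) and the other Irs4 probe set (right); black lines are genotype means and the band spans the array medians, 5.32 to 5.40. On the left the 3 double mutants lie between 6.46 and 7.05 and the other 9 arrays between 7.60 and 8.16, while on the right all 12 arrays lie below the band.

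The low values rest on 1 of the 2 probe sets of Irs4. The other measured 4.09 to 4.56 over the 12 arrays, below the array medians of 5.32 to 5.40 and not shown to be above background. Its double minus acd difference was 0.01. The probe set used lay above the array medians in all 12 arrays.

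In the comparisons that did not enter the choice of Irs4, it did not pass. In acd against wt Irs4 measured 0.15 ± 0.16 (SE; limma adjusted p = 1; 95% interval -0.20 to 0.49). In p53 against wt it measured -0.04 ± 0.16 (adjusted p = 1; 95% interval -0.38 to 0.31). The highest Irs4 value of the 12 was that of acd replicate 3. The acd mean then rests in part on that embryo: without it the acd against wt difference was 0.01. With sex as a term the Irs4 differences were 0.35 in acd against wt and 0.17 in p53 against wt, the latter with its sign turned. Only wt and double mutants held both sexes, so that term rests on them. It leans on double mutant replicate 1, the lowest Irs4 value and the only double mutant with Y transcripts.

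Double mutant replicates 1 and 2 stood apart over all genes: the median of their correlations with the remaining arrays was 0.972 and 0.987, where it was at least 0.995 in each of the 10 remaining arrays. Replicate 3 did not stand apart, and its Irs4 value of 6.90 lay between those of replicates 1 and 2. With replicate 3 as the only double mutant, the difference of Irs4 from acd was -0.99 and from p53 -0.81. Of 7 listed interferon response markers 6 were measured, and 2 of them, Rsad2 and Irf9, passed the filter on low values. Rsad2 measured 10.72, 10.49 and 6.95 in the double mutants and 6.27 to 6.88 in the other 9 arrays. Irf9 measured 9.52, 9.22 and 6.85 in the double mutants and 6.36 to 6.65 in the others. The other 4 markers lay below the array medians in every wt array, so no size is given for them. All 3 double mutants thus lay above the other arrays in Rsad2 and Irf9, replicate 3 by far less than the others. In the other 4 markers, Irf7, Ifit1, Ifit3 and Oasl2, replicate 3 lay within the range of the other 9 arrays, on values below the array medians. The part of this response in the Irs4 values was not tested.

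Sex differed between the genotypes, and Irs4 is X-linked. Transcripts of the Y chromosome were present in 1 wt, 3 acd, 3 p53 and 1 double mutant embryo. Among the embryos without them, Irs4 measured 7.68 and 7.87 in wt and 6.90 and 7.05 in double mutants. Among those with them it measured 7.60 to 8.16 in 7 embryos of the other genotypes and 6.46 in the double mutant. With sex as a term in the fit the Irs4 difference was -1.30 against acd and -0.94 against wt, a description like the others, since these values chose Irs4. Only 1 double mutant carried Y transcripts, replicate 1, which stood furthest apart over all genes. The sex term rests on wt and double mutants alone, the genotypes with both sexes.

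The measured genes beside Irs4 on the X chromosome did not share its pattern. They were taken by position after the values of Irs4 had been seen. Col4a5 and Col4a6, collagen chains of basement membranes, measured 8.93 ± 0.15 and 6.06 ± 0.13 in double mutants against 8.86 ± 0.05 and 6.09 ± 0.14 in acd (SD, n = 3 each). On the other side Nxt2 measured 6.40 ± 0.07 against 6.18 ± 0.10, and Kcne1l, a potassium channel subunit, 6.83 ± 0.30 against 6.33 ± 0.15. No double mutant array of these 4 genes lay below the lowest of the other 9 arrays.

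The genes most like Irs4 across the arrays were named by Pearson correlation of log2 values over the 12 arrays. They were Zfp622, a zinc finger protein (r = 0.96), Unc45b, a chaperone for muscle myosin (0.93), Rtcb, the ligase of tRNA splicing (0.93), Rrn3, an initiation factor of RNA polymerase I (0.92), Aldh1a3, an enzyme of retinoic acid synthesis (0.92), Dlst, a subunit of a citric acid cycle enzyme (0.91), Anp32b, a nuclear acidic protein (0.91), and Top3a, a DNA topoisomerase (0.91). The points share the genotype groups. In each of these 8 genes every double mutant array lay below the other 9, and over those 9 arrays alone the correlation was 0.53 to 0.79. Without double mutant replicates 1 and 2 it was 0.74 to 0.94 over 10 arrays. These 9 and 10 arrays were among the 12 used to pick the genes, so those correlations are not independent of the choice. The double mutant mean of Irs4 lay 0.98 below the mean of the other 9 arrays (-0.98 on the log2 scale), against -0.89 for Aldh1a3, -0.55 for Unc45b, -0.31 for Top3a and -0.24 to -0.10 for the other 5 genes. Aldh1a3 measured 4.93 to 5.63 in double mutants, around the array medians.

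None of the other members followed Irs4 in all 3 double mutants. Over Irs1, Irs2, Igf1, Igf2, Igf1r, Igf2r, Insr and Grb10, 0 of 8 passed limma's test in any comparison with double mutants, at an adjusted p of 0.05 over 13500 genes. Over all genes 0.00741% passed in double against p53, 0% in double against acd, 0.0148% in double against wt and 0% in the interaction, the change that the acd genotype made on a p53-/- background minus the change it made with p53 present. At an unadjusted p under 0.05 there was 1 of 8 in double against p53 and 0 of 8 in each of the others, against 10.7%, 12.6%, 11.1% and 3.93% of all genes. In acd against wt and p53 against wt 0 of 9 members passed, where 0.0148% and 0% of all genes did, and 0 of 9 had an unadjusted p under 0.05, against 1.77% and 0.719% of all genes. These comparisons share arrays (of the 6, wt and double each enter 4), so their values are not independent of each other.

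**Figure D2:**
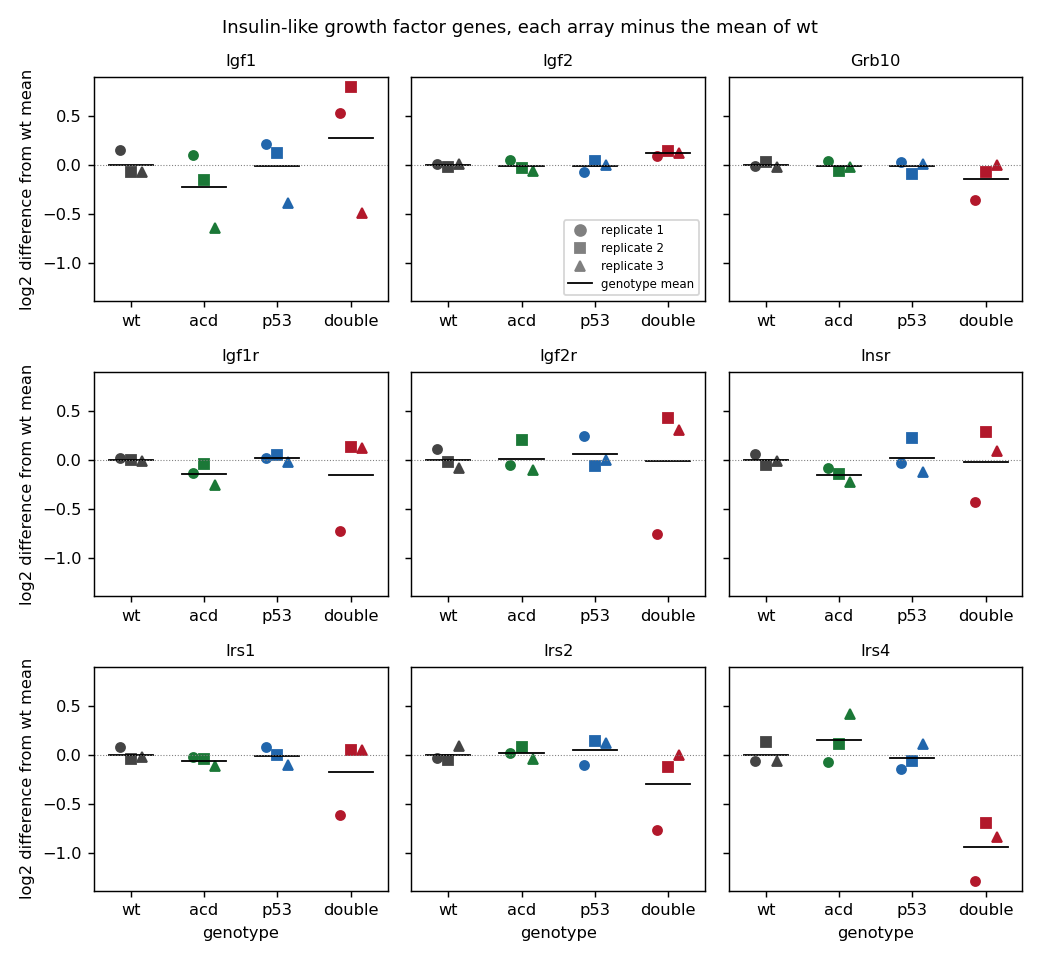
Log2 difference of each array from the mean of the 3 wt arrays for the 9 measured members, by genotype; symbols are replicates and black lines are genotype means. Irs4 is low in all 3 double mutants, Igf2 lies slightly above the other arrays in all 3, and most other members are low in double mutant replicate 1 alone.

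Among the ligands, Igf2, the main growth factor of the fetus (chr7:142650768-142666816), varied least. It measured 13.31, 13.28 and 13.31 in wt, 13.35, 13.27 and 13.24 in acd, and 13.22, 13.34 and 13.30 in p53. The double mutants measured 13.39, 13.44 and 13.42. Every double mutant array lay above the other 9, a pattern seen in 0.874% of all genes. The difference was small: 0.13 ± 0.07 (SE) against acd (95% interval -0.01 to 0.27), 0.13 ± 0.07 against p53 and 0.12 ± 0.07 against wt, and none passed (limma adjusted p = 0.417, 0.467 and 0.475). Double mutant replicate 3 shared it, with 0.13 against acd. The other Igf2 probe set, at 6.54 to 7.35, did not follow it: its double minus acd difference was -0.03.

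Igf1, the growth factor that takes over much of growth control after birth (chr10:87858265-87937047), varied more between embryos than Igf2. It measured 9.71, 9.49 and 9.49 in wt, 9.67, 9.41 and 8.92 in acd, and 9.78, 9.69 and 9.18 in p53. In double mutants it measured 10.09, 10.36 and 9.08. Replicates 1 and 2 of the double mutants held the highest values of the 12 arrays, and replicate 3 the second lowest. Replicate 3 also held the lowest Igf1 value within acd and within p53. The labels do not say whether same-numbered embryos are linked. The double against acd difference was 0.51 ± 0.29 (SE; limma adjusted p = 0.470; 95% interval -0.14 to 1.15). Without double mutant replicate 3 it was 0.89 and passed (adjusted p = 0.0230), a setting in which 13.9% of all genes passed. Replicate 3 alone measured -0.26 against acd. All 4 Igf1 probe sets were higher in double mutants than in acd by 0.51 to 0.69. In acd against wt they measured -0.23, -0.19, 0.03 and 0.05, so their signs differed.

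Igf1 was set beside marker lists of several cell types, array by array. The macrophage list (7 of 7 genes measured, 6 of them passing the filter on low values) exceeded wt by 1.43 in double mutant replicate 1 and by 1.04 in replicate 2, where Igf1 exceeded it by 0.53 and 0.79. In replicate 3 the list measured -0.11 and Igf1 -0.49. Its summed level was 9.93 and 10.44 in replicates 2 and 1 and 8.61 to 9.11 in the other 10 arrays, on the log2 scale. In wt only Csf1r, the receptor that defines macrophages, and C1qb, a complement subunit, lay clearly above the array medians. Csf1r measured 7.59 to 7.88 in wt and 8.85, 8.49 and 7.21 in the double mutants. C1qb measured 6.73 to 6.86 in wt and 8.67, 7.57 and 6.77 in the double mutants. The other 5 markers lay at 4.17 to 5.52 in wt, around or below the array medians, so the differences of the list mean are partly against background. The visceral endoderm and liver list (8 of 8) lay 1.58, 1.42 and 0.32 above wt in the double mutants and 1.15 above in p53 replicate 2, where Igf1 lay 0.12 above. It did not follow Igf1 in double mutant replicate 3, nor in acd replicate 3, where the list measured 0.31 and Igf1 -0.64. The neuron list (7 of 7) was at 0.17, 0.66 and -0.11 in the double mutants and at its lowest, -0.53, in acd replicate 3, where Igf1 was also at its lowest. The mesenchyme list (8 of 8) stayed between -0.13 and 0.34 in all arrays. It was at 0.12, 0.34 and -0.08 in the double mutants, with the signs and the order of Igf1, as was the neuron list. Both lists and Igf1 were at their highest in double mutant replicate 2, where the macrophage list was highest in replicate 1. The mesenchyme list was at its lowest, -0.13, in p53 replicate 1, where Igf1 lay 0.22 above wt. The part of these cell types in the Igf1 values was not tested.

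**Figure D3:**
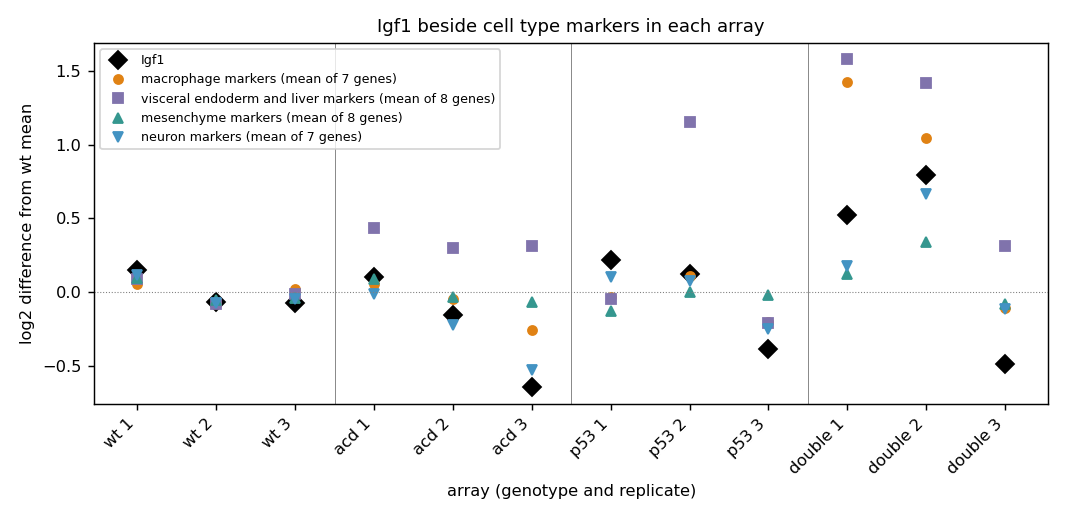
Log2 difference from the wt mean in each of the 12 arrays for Igf1 (diamonds) and for the mean of 4 cell type marker lists. In double mutant replicates 1 and 2 Igf1 lies at 0.53 and 0.79 and the macrophage list at 1.43 and 1.04, while in replicate 3 they lie at -0.49 and -0.11.

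Grb10, the imprinted inhibitor of receptor signalling (chr11:11930499-12037428), measured 12.31 to 12.37 in wt, 12.27 to 12.38 in acd and 12.24 to 12.37 in p53. The double mutants measured 11.97, 12.26 and 12.33. Replicate 1 lay below all other arrays and replicates 2 and 3 lay within or beside them. The double against acd difference was -0.13 ± 0.09 (SE; limma adjusted p = 0.531), and without double mutant replicate 1 it was -0.02. The dimmer Grb10 probe sets measured -0.09 and 0.02 in the same comparison.

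The receptors showed the same split between the double mutant embryos. Igf1r (chr7:67952257-68233668) measured 9.37, 10.23 and 10.23 in the double mutants against 10.09 to 10.12 in wt. Igf2r (chr17:12682406-12769706), the receptor that clears Igf2, measured 9.66, 10.85 and 10.72 against 10.34 to 10.54. Insr (chr8:3150922-3279649) measured 7.65, 8.36 and 8.16 against 8.02 to 8.13. In each receptor replicate 1 was the lowest of the 12 arrays and replicate 2 the highest, so the genotype means hid opposite values. Against acd the means differed by -0.01 ± 0.18 for Igf1r, -0.02 ± 0.24 for Igf2r and 0.14 ± 0.15 for Insr (SE; limma adjusted p = 0.979, 0.973 and 0.695). Without double mutant replicate 1 they differed by 0.27, 0.35 and 0.34, and none passed (adjusted p = 0.331, 0.352 and 0.352). The intervals of the full fit (95%), -0.41 to 0.38, -0.56 to 0.51 and -0.20 to 0.47, do not show that the receptors were alike in both genotypes. With array weights, which count divergent arrays less, Insr was higher in double mutants than in acd by 0.39 (adjusted p = 0.0290), a setting under which 13.2% of all genes passed.

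Both signalling receptors measured below wt in every acd embryo, though sex was not balanced between these groups. Igf1r measured 9.97, 10.06 and 9.85 in acd, all below the 10.09 to 10.12 of wt. Insr measured 7.99, 7.92 and 7.84 in acd, all below the 8.02 to 8.13 of wt. The differences were -0.15 ± 0.18 and -0.16 ± 0.15 (SE), and neither passed (limma adjusted p = 1 for each). Each SE comes from 1 spread shared by the 4 genotypes, to which the double mutants add most. For Igf1r the SD was 0.02 in wt, 0.11 in acd and 0.50 in double mutants. For Insr it was 0.06, 0.07 and 0.37. All 3 acd embryos but 1 of 3 wt embryos carried Y transcripts, and with sex as a term both signs turned, to 0.13 for Igf1r and 0.02 for Insr. Only wt and double mutants held both sexes, so that term rests on them. It leans on double mutant replicate 1, the only double mutant with Y transcripts and the lowest array for both genes. The wt embryo with Y transcripts, replicate 1, measured 10.12 for Igf1r and 8.13 for Insr, above every acd embryo. Of the 9 members these 2 lay below wt without overlap and 0 above, where 9.85% of all genes lay below and 7.24% above. The Igf1r difference held its sign in 3 of its 5 probe sets, the others at 0.02 and 0.07 being the dimmest. Of the 3 Insr probe sets the dimmest, at 3.70 to 4.25, had the opposite sign (0.10). No member (0 of 9) was separated from wt in p53 embryos, where 3.35% of all genes lay below and 3.42% above.

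Of the docking proteins, Irs1 (chr1:82233105-82291439), the widely expressed family member, measured 10.25, 10.91 and 10.91 in the double mutants. The other 9 arrays lay between 10.75 and 10.95. Irs2 (chr8:10984681-11008929), which also serves insulin signalling in liver and the insulin-producing cells, measured 7.34, 7.98 and 8.11, against 8.01 to 8.26 in the other 9 arrays. Replicate 1 was the lowest array for both genes, as it was for Irs4. Double against p53 gave -0.36 ± 0.16 for Irs2 (SE; limma adjusted p = 0.463), or -0.12 without double mutant replicate 1, and -0.17 ± 0.15 for Irs1 (adjusted p = 0.600), or 0.05 without it. The Irs4 difference without that replicate was -0.74. In replicate 2 Irs2 lay just under the other 9 arrays and Irs1 within them, and in replicate 3 both lay within them, where Irs4 lay below. This is a description of the values; the difference between the genes was not tested.

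Double mutant replicate 1 was the lowest of the 12 arrays in 7 of the 9 members, which are Irs4, Irs1, Irs2, Igf1r, Igf2r, Insr and Grb10. Over all genes 30.4% had their lowest value in that array and 32.6% their highest. Irs4 was chosen for low double mutant values, so only the other members named can be set beside the 30.4%. Replicate 2 was the highest in 5 members, Igf1, Igf2, Igf1r, Igf2r and Insr, against 13.8% of all genes. Replicate 3 was at neither end in any member, against 8.62% (lowest) and 6.07% (highest) of all genes. Irs4 lay below and Igf2 above without overlap in each double mutant comparison, 1 of 9 members in each direction. Over all genes the shares below and above were 5.01% and 3.28% against p53, 6.9% and 4.4% against acd, and 8.24% and 4.96% against wt; for Irs4 the share says nothing, since these values chose it.

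The rest of the pathway was read through 62 listed genes, of which 57 were measured and 54 passed the filter on low values. In limma's test 0 of 54 passed in each of the 6 comparisons. At an unadjusted p under 0.05 there were 0 in acd against wt, 1 in p53 against wt, 5 in double against p53, 7 in double against acd, 3 in double against wt and 2 in the interaction. The shares over all genes at that p were 1.77%, 0.719%, 10.7%, 12.6%, 11.1% and 3.93%, so the pathway counts with double mutants lay near or below the background. The median differences were -0.02, -0.02, -0.07, -0.06, -0.07 and -0.03, against -0.01, -0.0035, -0.01, -0.01, -0.01 and -0.01 over all genes.

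Igfbp3, a binding protein that carries insulin-like growth factors in body fluids, had the smallest p of the listed genes in every comparison with double mutants. It measured 8.99, 8.86 and 8.80 in wt, 8.75, 8.61 and 8.68 in acd, 8.87, 8.82 and 8.90 in p53, and 9.58, 9.37 and 8.93 in double mutants. The double mutants lay above all acd and p53 arrays and overlapped with wt. Over all genes 4.4% lay above acd and 3.28% above p53 in this way. Double against acd gave 0.61 ± 0.13 (SE; limma adjusted p = 0.371), and without double mutant replicate 3 it gave 0.79 and passed (adjusted p = 0.000587), as did 13.9% of all genes. Of the 10 binding protein genes 6 were higher and 4 lower in double against acd, with a median of 0.13. Igfbp1, a binding protein made by liver, lay at 4.37 to 5.51, around or below the array medians, so no size is given for it. Igfbp4 measured -0.12 ± 0.07 in p53 against wt (adjusted p = 1).

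Igf2bp1, which binds the Igf2 transcript, measured 10.01, 10.95 and 11.41 in the double mutants, where the other 9 arrays lay between 11.24 and 11.38. The difference from wt was -0.53 ± 0.25 (SE; limma adjusted p = 0.456) and went with replicates 1 and 2. Without replicate 3 it was -0.84 and passed (adjusted p = 0.0220), as did 12.2% of all genes. The other measured member of the list, Igf2bp3, was lower as well, with -0.28 ± 0.19 (adjusted p = 0.529).

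Among adaptors and regulators, Ptpn11, the phosphatase Shp2 that acts beside docking proteins, measured 9.95, 10.25 and 10.28 in the double mutants and 10.33 to 10.47 in the other 9 arrays. Every double mutant array lay below the other 9, as in 1.44% of all genes, and the difference from wt was -0.24 ± 0.09 (SE; limma adjusted p = 0.447). It was -0.13 without double mutant replicate 1. Socs2, a feedback inhibitor of growth hormone signalling, measured 0.21 ± 0.09 in double against p53 (adjusted p = 0.463). In acd against wt Grb14, an inhibitory adaptor related to Grb10, measured 0.19 ± 0.09 and Grb2, the adaptor that links receptors to Ras, -0.15 ± 0.08 (adjusted p = 1 for each). Of the 11 tested genes of this list 2 were higher and 9 lower in double against acd, with a median of -0.06. Over all genes 52.8% were lower in that comparison. The mean of the list, over its 12 measured genes, lay at -0.22 relative to wt in double mutant replicate 1. In replicates 2 and 3 it lay at -0.01 and 0.02.

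Of 18 tested genes of phosphatidylinositol 3-kinase, Akt and mTOR signalling, 16 were lower in double against p53 and in double against wt, with a median of -0.11 in each, 13 in double against acd and 15 in acd against wt, where the median was -0.04. Lower values made up 52.0%, 53.2%, 52.8% and 52.8% of all genes in these comparisons. The mean of the list lay at -0.35 in double mutant replicate 1, and at 0.05 and -0.02 in replicates 2 and 3, relative to wt. Akt2, a kinase of insulin responses, measured 8.54, 8.44 and 8.58 in the double mutants and 8.60 to 8.73 in the others, a difference of -0.17 ± 0.07 from p53 (SE; limma adjusted p = 0.463). Of all genes 1.44% likewise lay below the other 9 arrays in every double mutant. Pik3cb, a catalytic subunit, measured 5.42 to 5.53 in double mutants and 5.74 to 5.97 in acd, with -0.36 ± 0.12 (adjusted p = 0.371), on values just above the array medians. The regulatory subunit Pik3r2 measured -0.07 ± 0.08 in p53 against wt (adjusted p = 1).

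**Figure D4:**
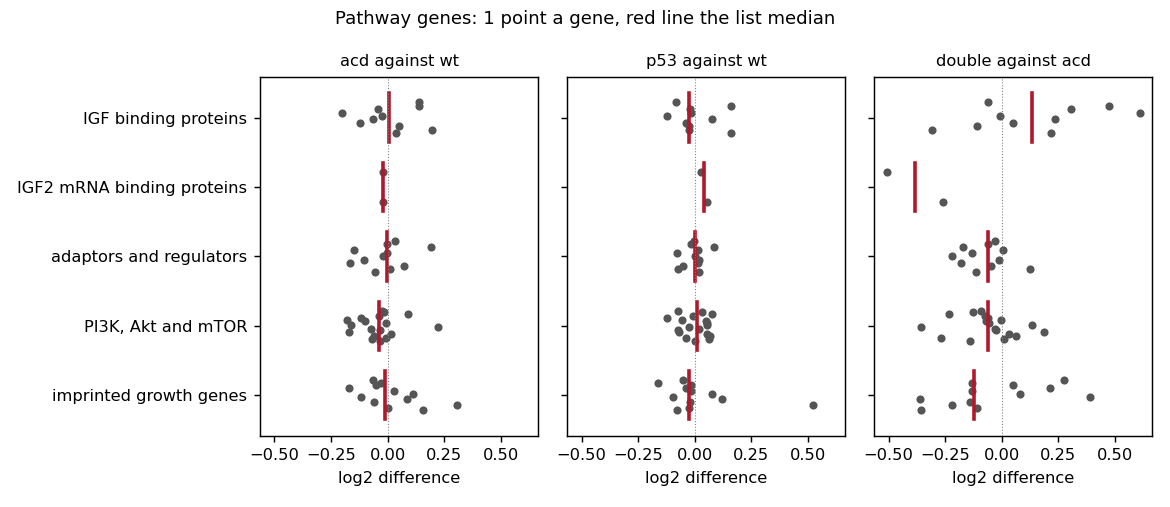
Log2 differences of the pathway genes that passed the filter on low values, 1 point a gene, in acd against wt, p53 against wt and double against acd; red lines are the list medians, and the list of insulin genes, with 1 gene tested, is left out. In double against acd the median lies at 0.13 for the binding proteins, -0.06 for the adaptors and for the kinase genes and -0.12 for the imprinted genes.

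The imprinted genes that regulate fetal and placental growth gave 5 higher and 7 lower of 12 in double against acd, with a median of -0.12. Slc38a4, an amino acid transporter, measured 9.50, 9.59 and 9.98 in double mutants and 9.95 to 10.16 in acd, a difference of -0.35 ± 0.13 (SE; limma adjusted p = 0.371). It was -0.50 and passed without double mutant replicate 3 (adjusted p = 0.0137), where 13.9% of all genes passed. Phlda2, a brake on placental growth, measured 6.22, 7.11 and 7.12 in p53 against 6.25 to 6.31 in wt, with 0.52 ± 0.22 (adjusted p = 1). Of 5 listed placental markers 3 were measured, and they did not move together. Rhox5 measured 5.63, 7.38 and 6.97 in the same p53 arrays and 6.16 to 6.28 in wt. Hand1 measured 6.42, 6.44 and 6.37 in those p53 arrays and 6.36 to 6.42 in wt. Tpbpa lay at 3.16 to 3.57, below the array medians. The part of placental tissue in the Phlda2 values was not tested. Dlk1, a transmembrane growth regulator, measured -0.16 ± 0.11 in p53 against wt (adjusted p = 1). Nnat, a proteolipid of developing brain, measured 0.49 ± 0.24 in the interaction (adjusted p = 0.879). Of the listed insulin genes Ins2 alone passed the filter, with 0.06 in double against acd.

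Acd itself was lower in acd against wt (-0.73 ± 0.08 SE, limma adjusted p = 0.0113) and in double against wt (-0.63 ± 0.08, adjusted p = 0.0492). In double against p53 it measured -0.55 ± 0.08 and did not pass (adjusted p = 0.183).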

How the data were processed

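RNA of 12 whole embryos, 3 per genotype, was labelled from 250 ng each, per the labels' protocols. The deposited values are log2 expression values of 45101 probe sets, which the authors normalized with justRMA, per the series' design text. That text names BRB-ArrayTools 4.4.0 for their choice of differing genes. Equalised distributions hide a change in total RNA. No signal over background was given, and the number of arrays limits the precision. Platform annotation gave 34958 probe sets 1 gene symbol and 932 several. Symbols were matched to RefSeq (GRCm38.p6) by gene identifier, and coordinates come from that assembly. Genes above the 40th percentile of the array in at least 3 arrays were tested (13500 of 18193), with all 9 measured members among them.

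With 1 mean for each of the 4 genotypes, the 12 arrays were fitted together in limma 3.58.1 in R 4.3.3 (8 residual degrees of freedom, two-sided, Benjamini-Hochberg over 13500 genes, adjusted p of 0.05). Without known litters, p-values measure the spread between these samples. Named genes are Acd, the members, in each comparison the 4 pathway genes with the smallest p, and the 8 genes most correlated with Irs4, besides those said to be chosen otherwise. Members, lists and tests were chosen with earlier results of these data known. The placental list (3 of 5 measured, 2 tested) had a median of -0.36 in double against acd, and the sex-linked list served to tell the sexes. On simulated arrays for acd against wt, run over 13500 genes, the fit recovered 28 of 50 genes changed by 0.5 on the log2 scale, 46 of 50 changed by 1 and 49 of 50 changed by 2, with 14 false calls. The simulated arrays had the same spread in every genotype, unlike the data, so these counts do not give the power in these data. The labels do not say whether replicate numbers pair the embryos, and the main fit did not pair them. The alternatives were a replicate block, filters, probe set rules, normalizations, variance models, arrays compared, sex and leaving out arrays.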

Additional observations from a re-analysis of the deposited data

Results flagged for a closer look

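Igfbp3 lay below the wt mean in all 3 acd arrays and above the p53 mean in all 3 double mutant arrays. It differed by -0.20 in acd against wt and by 0.43 in double against p53, so the interaction was 0.63 and did not pass (limma adjusted p = 0.879), though without double mutant replicate 3 it was 0.81 and passed (adjusted p = 0.00776), as did 3.25% of all genes.

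Phlda2 lay above the wt mean in all 3 acd arrays (0.30) and below the p53 mean in all 3 double mutant arrays (-0.44), an interaction of -0.74 (limma adjusted p = 0.879). Pik3cb had the same signs, with 0.22 and -0.11 and an interaction of -0.33 (limma adjusted p = 0.879).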

How the results depend on the processing

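The calls on members and pathway genes stayed at 0 in acd against wt and p53 against wt under every alternative run. With a replicate block 0 members and 0 pathway genes were called in any of the 6 comparisons; correlations between same-numbered embryos ran from -0.23 to 0.40. With array weights 1 member and 9 pathway genes were called in double against acd and 6 pathway genes in double against wt, where 13.2% and 13.4% of all genes passed. Leaving out 1 array at a time gave 0 to 8 pathway genes called in double against p53, 0 to 7 in double against acd, 0 to 6 in double against wt and 0 to 1 in the interaction, and 0 to 1 members in double against acd. All of these calls came without double mutant replicate 3, where 13%, 13.9%, 12.2% and 3.25% of all genes passed in these 4 comparisons. The gap of Irs4 between the double mutants and the other arrays was 0.55, from 0.55 to 0.69 leaving out 1 array, and 0.22 with the mean of all probe sets, which brings in the dim one. Of the 8 genes most like Irs4, 2 were among the top 8 without double mutant replicates 1 and 2, and 1 by Spearman rho.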
